A study of Homo sapiens with 12 samples.

Results

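The androgen receptor is a steroid hormone receptor that, once bound by androgen, moves to the nucleus, binds response elements in DNA and switches genes on or off. Described here are 9 genes that it is known to regulate or that mark prostate luminal cells: FKBP5, TMPRSS2, SLC45A3, ACSL3, ZBTB16, ALDH1A3, HPGD, PMEPA1 and MAF. They were taken by symbol from a list to which no threshold on a measured value was applied. The 9 genes and the lists set beside them were, however, chosen with earlier results of these data known. Comparisons of their shares with those of all genes are therefore not independent of the data. All 9 were found among the 55882 gene symbols of the deposited count table, and 8 were among the 14799 genes with enough counts to be tested. ZBTB16 was not tested.

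The libraries came from T47D, an established human line of luminal breast cancer in which estrogen, progesterone and androgen receptors are all present. Control cells, labelled wild type, and T47D-HOXB13 cells, which carry added HOXB13, were each given ethanol vehicle or 2 nM estradiol for 24 h. Every group had first spent 72 h in phenol-free medium with 10% charcoal-stripped serum, a treatment that removes most steroids, and the labels name no added androgen. Each of the 4 groups had 3 libraries, numbered 1 to 3. The labels do not say how HOXB13 was introduced, whether the controls carry a vector, whether the HOXB13 cells are 1 clone or several, or whether numbers stand for separate cultures, so the p-values may measure technical spread alone.

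HOXB13 is a homeobox transcription factor of the posterior body and the prostate. In prostate cells it binds DNA beside the androgen receptor, and the forkhead factor FOXA1 opens many of the same sites. In breast cells the androgen and estrogen receptors share cofactors and some binding sites, and the androgen receptor also drives an apocrine gene program.

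Each library held between 17679824 and 21385996 counts. HOXB13 had 112, 106 and 108 counts in the HOXB13 vehicle libraries and 110, 92 and 97 in the HOXB13 estradiol libraries, against at most 2 in a control library. The 4 libraries numbered 2 stood apart on the second principal component, which held 17.8% of the variance, and same-numbered libraries deviated together. Results are therefore given with the library number as a block where that changes the call. The shared deviation was clearest for number 2. Over all 4 groups, correlations of deviations were as low as 0.0926 between same-numbered libraries and reached 0.255 between different-numbered ones. Breast luminal markers were all detected and summed to 19982 to 28058 CPM (counts scaled to library size) per library, whereas the 10 prostate luminal markers summed to 10.6 to 24.7 CPM. The prostate kallikrein KLK2 had 0 counts in the 12 libraries, which allows up to 0.0128 CPM at a limit of 3 counts, and KLK3, which encodes prostate-specific antigen, had 2 counts in all. Of 16 genes that mark other cell types (blood, vessel, stroma, fat), 15 were in the table and summed to 80.9 to 103 CPM, with the endothelial gene CDH5 at 0 counts in every group and COL1A1 alone giving 51.5 to 64.1 CPM.

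Promoter sequences are shown for MAF, which had the largest estradiol response of the 8 tested genes, and for PMEPA1. Every HOXB13 library of PMEPA1 lay under every control library of its treatment, but neither difference passed in edgeR without the block. The sequences are the 250 bases before an annotated transcription start, written 5′ to 3′ along the gene. They come from RefSeq on GRCh38.p14, a later build than the GRCh37 of the counts. All 3 lie on the minus strand. Capitals mark AGAACA, the half-site of the androgen response element, or AGGTCA, the half-site of the estrogen response element, on either strand.
MAF promoter, chr16:79600738-79600987: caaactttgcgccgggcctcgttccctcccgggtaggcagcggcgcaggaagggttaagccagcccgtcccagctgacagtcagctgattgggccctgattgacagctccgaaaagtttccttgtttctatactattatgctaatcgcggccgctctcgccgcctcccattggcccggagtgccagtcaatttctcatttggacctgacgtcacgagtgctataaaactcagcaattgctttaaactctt
PMEPA1 promoter 3, chr20:57710578-57710827: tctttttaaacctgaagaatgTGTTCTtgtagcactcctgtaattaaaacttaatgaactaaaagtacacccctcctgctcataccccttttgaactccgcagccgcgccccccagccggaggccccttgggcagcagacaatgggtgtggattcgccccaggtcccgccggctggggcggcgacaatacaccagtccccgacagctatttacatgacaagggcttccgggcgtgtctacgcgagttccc
PMEPA1 promoter 4, chr20:57711473-57711722: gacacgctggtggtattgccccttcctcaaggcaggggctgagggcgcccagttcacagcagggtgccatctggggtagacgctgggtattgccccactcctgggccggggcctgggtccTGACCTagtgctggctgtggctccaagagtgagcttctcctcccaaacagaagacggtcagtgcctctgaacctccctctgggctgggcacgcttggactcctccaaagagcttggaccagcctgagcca

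RefSeq promoter entries matched 7 of the 9 genes, with 12 start sites between them. Windows of 250 bases before to 50 after each start were searched on both strands. PMEPA1 had 4 of these starts, and only numbers 3 and 4, which held matches, are printed above. Its promoters 1 and 2 held none of the letters searched. In PMEPA1 promoter 3 the androgen half-site lies at bases −229 to −224 on the opposite strand. In PMEPA1 promoter 4 the estrogen half-site lies at −130 to −125 on the opposite strand, and a further androgen half-site lies at 23 to 28 after the start, outside the stretch printed. FKBP5 promoter 2 held an androgen half-site at bases 1 to 6, shown in the 30 bases around it.
FKBP5, chr6:35728566-35728595, minus strand: caccactaccccAGAACAaactcctacctc

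Such half-sites are common: AGAACA occurred in 14.8% and AGGTCA in 13.8% of 35116 RefSeq promoters of the same length. The full inverted-repeat androgen response element (0.0114% of promoters), the full estrogen response element (0.057%), the HOXB13 motifs CCAATAAA (0.934%) and CTCGTAAA (0.137%) and the forkhead motif TGTTTAC (3.42%) matched none of the 12 windows. The MAF window held none of the letters searched. A match is a description of the sequence and does not show binding.

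The order of the 9 genes was read from levels divided by exon length, with lengths from a GENCODE annotation of a later build than the counts. In control vehicle libraries PMEPA1 stood at 18.5 ± 0.515 CPM per kb (SD, n = 3), ACSL3 at 16.7 ± 1.47 and FKBP5 at 15.1 ± 0.787. The libraries of PMEPA1 overlapped with those of ACSL3, and those of ACSL3 with those of FKBP5. TMPRSS2 followed at 2.73 ± 0.399 CPM per kb, above ALDH1A3 at 1.55 ± 0.0845, with no overlap at either step. SLC45A3, at 0.902 ± 0.127, overlapped with MAF, at 0.576 ± 0.253. HPGD was near the limit of the assay at 0.10 ± 0.0827 CPM per kb, and ZBTB16 had 1 count in the 3 control vehicle libraries together. In HOXB13 estradiol libraries PMEPA1 stood at 11.7 ± 1.15 CPM per kb, under ACSL3 at 15.7 ± 1.06 and FKBP5 at 16.6 ± 1.76, and its highest library (12.8) was under the lowest of each of these genes (14.5 and 14.7).

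**Figure D1:**
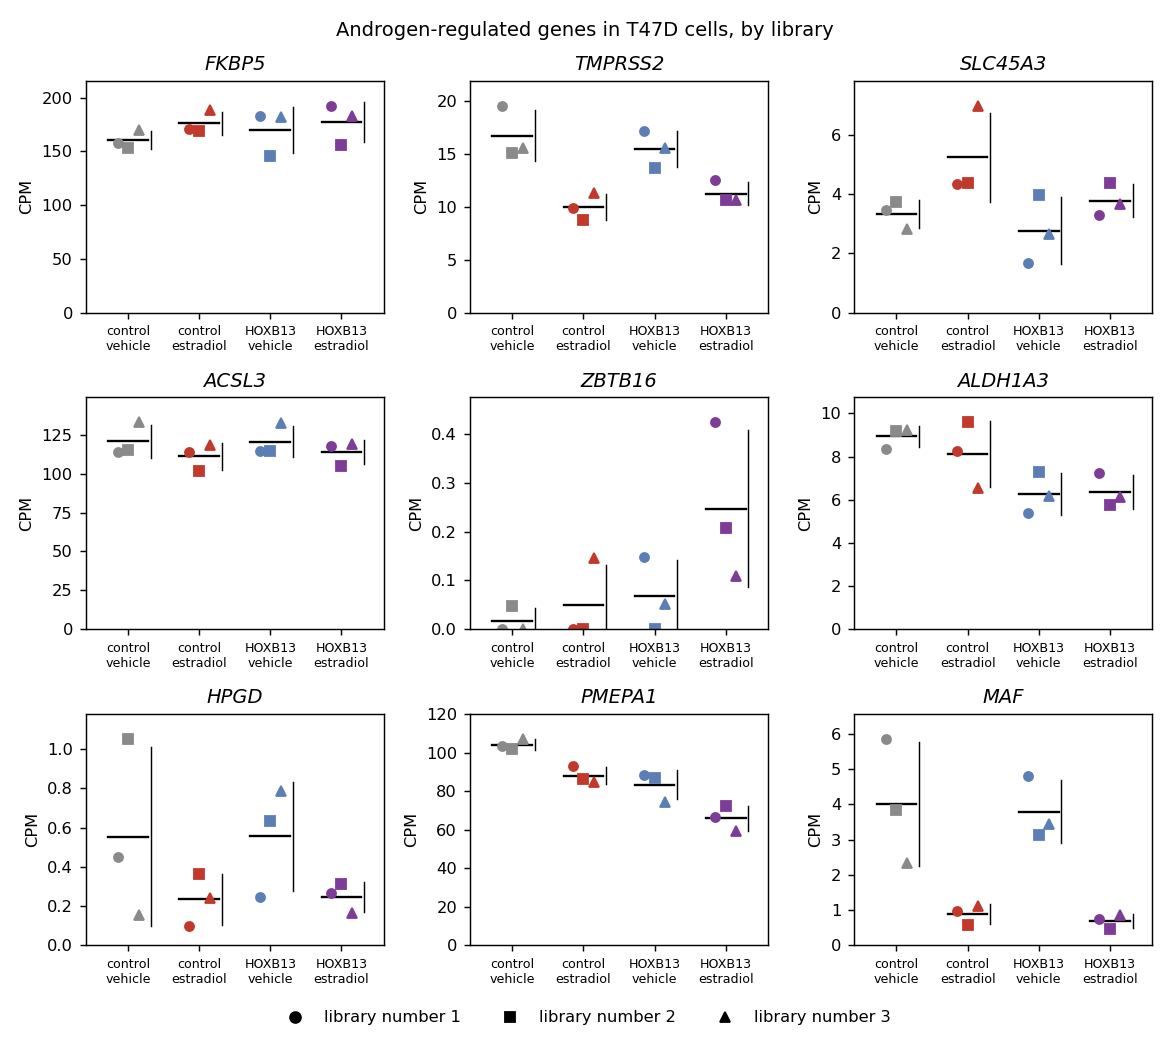
CPM of the 9 genes in each library, 1 panel per gene with its own linear axis from 0. Points are libraries, with the marker shape giving the library number, bars are group means and lines are 1 SD (n = 3). MAF and TMPRSS2 are lower in the estradiol groups, PMEPA1 is lower in each HOXB13 group than in the control group of the same treatment, and ZBTB16 and HPGD lie under 1.5 CPM.

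Estradiol lowered 2 of the 8 tested genes in control cells, MAF and TMPRSS2, and raised none. Among all genes tested, 6.72% fell and 8.65% rose at an adjusted p under 0.05 by edgeR's quasi-likelihood test. With the library number as a block, 3 of the 8 fell and 1 rose, where 16.5% of all genes fell and 17.5% rose. In HOXB13 cells estradiol lowered MAF and PMEPA1 and raised none of the 8, against 6.38% of all genes lower and 7.22% higher. With the block 3 fell and 0 rose, against 15% and 15.5%. Without the libraries numbered 2, where HPGD missed the filter and 7 of the 9 genes were tested, 2 fell and 1 rose in control cells, against 11.1% and 12.9% of all genes. In HOXB13 cells 3 fell and 0 rose in that setting, against 10.4% and 11.7%. The median log2 fold change of the 8 was −0.19 in control and −0.21 in HOXB13 cells, and that of all tested genes was −0.01 in both. The libraries of the estradiol and vehicle groups did not overlap for 4 of the 8 in control cells and for 3 in HOXB13 cells, where 30.9% and 29.9% of all tested genes did not. In bulk libraries a lower value can mean fewer cells with the transcript or less RNA per cell, which cannot be told apart.

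MAF encodes a basic leucine zipper transcription factor. In control cells it measured 5.87, 3.83 and 2.35 CPM with vehicle and 0.977, 0.568 and 1.11 CPM with estradiol, in the order of library numbers 1, 2 and 3. In HOXB13 cells it measured 4.81, 3.12 and 3.45 CPM with vehicle and 0.744, 0.469 and 0.867 CPM with estradiol. Every estradiol library lay under every vehicle library in both cell types. The counts behind these values were 45 to 117 with vehicle and 9 to 23 with estradiol. The log2 fold change with estradiol was −2.18 ± 0.38 (SE) in control cells, a ratio of 0.221 (adjusted p = 0.00130, edgeR). The change was −2.46 ± 0.39 in HOXB13 cells, a ratio of 0.182 (adjusted p = 0.000941, edgeR). Both calls held in each of the 6 fits that left out 1 library of the comparison.

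TMPRSS2 encodes a transmembrane serine protease of secretory epithelia whose androgen-driven promoter is joined to ERG in many prostate cancers. Control cells had 19.5, 15.1 and 15.5 CPM with vehicle and 9.91, 8.77 and 11.2 CPM with estradiol. HOXB13 cells had 17.1, 13.7 and 15.5 CPM with vehicle and 12.5, 10.6 and 10.6 CPM with estradiol. The groups were apart in both cell types, by a wider margin in control cells. The log2 fold change was −0.74 ± 0.15 (SE) in control cells, a ratio of 0.598 (adjusted p = 0.00445, edgeR, and 0.00412 to 0.0276 with any 1 library left out). In HOXB13 cells it was −0.46 ± 0.15 and missed the threshold (adjusted p = 0.0641, edgeR), which it passed with the replicate block (0.00752), without the libraries numbered 2 (0.0390) and by DESeq2 (0.0454). The difference between the responses was 0.28 on the log2 scale, with a 95% interval of −0.18 to 0.75.

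SLC45A3 encodes prostein, a transporter of prostate luminal cells. It had 3.46, 3.74 and 2.82 CPM in control vehicle libraries and 4.35, 4.39 and 6.98 CPM in control estradiol libraries. It had 1.69, 3.96 and 2.67 CPM in HOXB13 vehicle libraries and 3.29, 4.38 and 3.68 CPM in HOXB13 estradiol libraries. Estradiol libraries were higher within each of the 3 numbers in both cell types, while the groups were apart in control cells and overlapped in HOXB13 cells. The log2 fold change was 0.65 ± 0.29 (SE) in control cells and missed the threshold (adjusted p = 0.154, edgeR). It passed with the replicate block (0.0494) and without the libraries numbered 2 (0.0424). In HOXB13 cells it was 0.45 (adjusted p = 0.373, edgeR). This was the direction opposite to that of TMPRSS2 and MAF.

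PMEPA1 encodes a membrane adaptor that binds NEDD4-family ubiquitin ligases and restrains TGF-beta and androgen receptor signalling. With vehicle it measured 103.1, 101.7 and 107.3 CPM in control cells and 88.4, 86.9 and 74.5 CPM in HOXB13 cells. With estradiol it measured 92.9, 86.2 and 84.6 CPM in control cells and 66.4, 72.1 and 59.2 CPM in HOXB13 cells. Each estradiol library was under every vehicle library of its cell type, and each HOXB13 library was under every control library of its treatment. Estradiol gave a log2 fold change of −0.34 ± 0.10 (SE) in HOXB13 cells, a ratio of 0.791 (adjusted p = 0.0444, edgeR, and 0.00170 with the replicate block). That call was lost without HOXB13 vehicle library 1 (adjusted p = 0.181) or 2 (0.109), without HOXB13 estradiol library 1 (0.117) or 3 (0.179), and under 3 other settings. In control cells the value was −0.24 ± 0.10 (adjusted p = 0.136, edgeR, and 0.0153 with the replicate block). Part of the exon sequence of PMEPA1, 6.1%, is shared with NKILA on the other strand, and the strand setting of the counting is not given in the sources used here.

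FKBP5 encodes an HSP90 cochaperone of steroid receptors that androgens, glucocorticoids and progestins are known to raise. In control cells it had 157.9, 153.4 and 169.6 CPM with vehicle and 171.1, 168.7 and 188.1 CPM with estradiol. In HOXB13 cells it had 182.4, 145.4 and 182.3 CPM with vehicle and 192.3, 156.1 and 182.4 CPM with estradiol. The groups overlapped in both cell types. The log2 fold changes, 0.13 ± 0.11 (SE) in control and 0.06 in HOXB13 cells, did not pass (adjusted p = 0.486 and 0.808, edgeR).

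ACSL3 encodes an acyl-CoA synthetase that activates long-chain fatty acids. It measured 121 ± 10.6 CPM (SD, n = 3) with vehicle and 111 ± 8.71 with estradiol in control cells, and 121 ± 10.1 and 114 ± 7.67 in HOXB13 cells. Its groups overlapped, and neither log2 fold change, −0.12 or −0.08, passed (adjusted p = 0.507 and 0.675, edgeR). ALDH1A3, the enzyme that makes retinoic acid from retinaldehyde, had estradiol log2 fold changes of −0.14 in control cells (adjusted p = 0.670, edgeR) and 0.02 in HOXB13 cells.

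HPGD encodes the dehydrogenase that inactivates prostaglandins. It had 9, 22 and 3 counts in control vehicle libraries, 2, 7 and 5 in control estradiol libraries, 5, 12 and 15 in HOXB13 vehicle libraries and 5, 6 and 3 in HOXB13 estradiol libraries. The groups overlapped. Its log2 fold changes with estradiol, −1.27 ± 0.73 (SE) in control and −1.16 ± 0.73 in HOXB13 cells, did not pass (adjusted p = 0.280 and 0.351, edgeR). It reached the testing filter through 3 libraries, all of them vehicle libraries, so its presence among the tested genes is no evidence of a response.

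**Figure D2:**
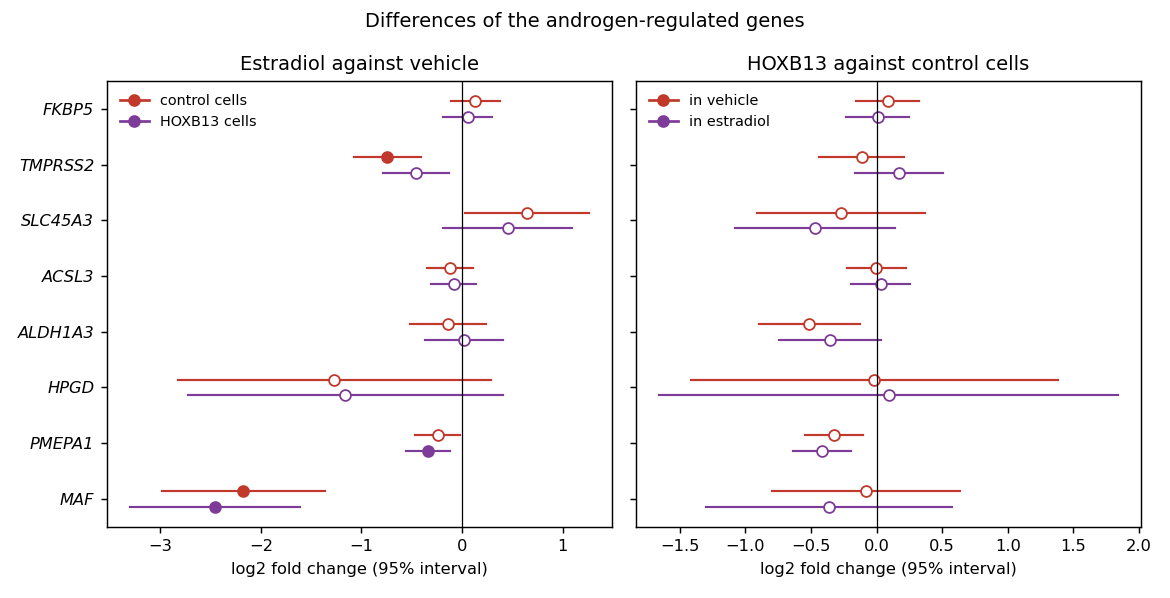
Log2 fold changes of the 8 tested genes, with 95% intervals, for estradiol against vehicle in each cell type and for HOXB13 against control in each treatment. Filled points passed an adjusted p of 0.05 in edgeR without the replicate block. The 4 filled points are MAF in both cell types, TMPRSS2 in control cells and PMEPA1 in HOXB13 cells, all for estradiol.

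None of the 8 tested genes passed in the comparison of HOXB13 with control cells in vehicle, by edgeR's quasi-likelihood test, where 0.0203% of all tested genes rose and 0% fell. None passed with estradiol either, where the shares were 0.0135% and 0%. At an unadjusted p under 0.05, 2 of the 8 were lower in vehicle, PMEPA1 and ALDH1A3, and 1 with estradiol, PMEPA1, where 1.84% and 1.89% of all tested genes were lower. DESeq2 passed none of the 8 in either treatment. With the replicate block 0 of the 8 passed in vehicle and 1 fell with estradiol, where 0.216% and 0.25% of all genes fell and 0.189% and 0.142% rose. Without the libraries numbered 2 none of 7 passed in either treatment by edgeR, where 0.0605% of all genes fell and 0.188% rose in vehicle, and 0.0873% fell and 0.0538% rose with estradiol. The median log2 fold change of the 8 was −0.10 in vehicle and −0.17 with estradiol, and the groups were apart for 2 and 1 of them, where 7.14% and 9.88% of all tested genes were.

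PMEPA1 had the smallest p of the 8 in both treatments. From the per-library values above, its log2 fold change for HOXB13 against control was −0.32 ± 0.10 (SE) in vehicle (adjusted p = 0.984, edgeR, and 0.0648 with the replicate block). With estradiol it was −0.42 ± 0.10 (adjusted p = 0.640, edgeR, and 0.00936 with the block). The average over both treatments, 6 libraries against 6, was chosen after seeing the data. It gave −0.37 ± 0.07 (adjusted p = 0.0842, edgeR, in a fit where 0.0608% of all genes fell and 0.0878% rose) and, with the block, −0.37 ± 0.05 (adjusted p = 0.000277), a fit in which 1.54% of all genes fell and 1.07% rose. Of the markers of other cell types, the smooth muscle actin gene ACTA2, named after its values were seen, was higher in every HOXB13 library than in every control library of the same treatment. It measured 17.1 ± 4.43 CPM in control and 29.1 ± 4.01 CPM in HOXB13 cells with vehicle (SD, n = 3), a log2 fold change of 0.77 (adjusted p = 0.515, edgeR, and 0.000616 with the block). With estradiol it measured 23.2 ± 0.997 and 31.4 ± 4.42 CPM, a change of 0.43 (0.999, and 0.104 with the block). Its part in the PMEPA1 values was not tested.

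ALDH1A3 had 8.37, 9.20 and 9.24 CPM in control vehicle libraries and 5.36, 7.29 and 6.17 CPM in HOXB13 vehicle libraries. With estradiol it had 8.25, 9.60 and 6.54 CPM in control cells and 7.22, 5.73 and 6.12 CPM in HOXB13 cells. The HOXB13 libraries were lower within each of the 3 numbers in both treatments, and the groups were apart in vehicle and overlapped with estradiol. The log2 fold changes were −0.51 ± 0.18 (SE) in vehicle and −0.35 with estradiol, and the averaged value was −0.43 ± 0.13. None passed (adjusted p = 1.0, 0.999 and 0.349 by edgeR, and 0.270, 0.516 and 0.0575 with the replicate block). An opposite-strand gene covers 27.5% of the ALDH1A3 exons, and with the strand setting unknown its reads may be counted with those of ALDH1A3.

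ZBTB16 encodes PLZF, a zinc-finger transcriptional repressor that androgens and glucocorticoids are known to induce. It had 0, 1 and 0 counts in control vehicle libraries, 0, 0 and 3 in control estradiol libraries, 3, 0 and 1 in HOXB13 vehicle libraries and 8, 4 and 2 in HOXB13 estradiol libraries. The 14 counts of the last group gave 0.248 CPM (exact 95% Poisson interval 0.136 to 0.416). The ratio to control estradiol was 5.0 (exact 95% interval 1.39 to 27.1) and that to HOXB13 vehicle 3.61 (1.13 to 15). These intervals cover counting error only, and the library values overlapped. In an edgeR fit without the low-count filter the HOXB13 effect with estradiol had an adjusted p of 1.0 (unadjusted p = 0.162).

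For the other 6 tested genes no HOXB13 comparison passed, with or without the block. The HOXB13 log2 fold changes in vehicle and with estradiol were 0.09 and 0.01 for FKBP5, −0.11 and 0.17 for TMPRSS2, and −0.08 and −0.36 for MAF. ACSL3 had −0.00 in vehicle, with a 95% interval of −0.23 to 0.22, and 0.03 with estradiol. SLC45A3 had −0.27 and −0.47, with overlapping libraries in both treatments. HPGD had p-values of 0.981 and 0.912 before adjustment (edgeR). A difference in the estradiol response between cell types passed for none of the 8 (interaction test in edgeR, 0 of 8 also at an unadjusted p under 0.05). At the adjusted threshold 0% of all genes passed, with or without the block. At an unadjusted p under 0.05 there were 219 of 14799 genes without the block and 585 with it. The interval of the difference, from the fit without the block, ran from −0.41 to 0.22 for PMEPA1 and from −1.46 to 0.90 for MAF. Differences inside those bounds could not be told from 0 in that fit. The SE of the difference was smaller with the block, at 0.11 against 0.15 for PMEPA1 and 0.49 against 0.55 for MAF.

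Genes whose products act with the androgen receptor moved in both directions with estradiol. FKBP4, a cochaperone related to FKBP5, rose from 463 ± 46.4 to 1255 ± 94.95 CPM (SD, n = 3) in control cells, a log2 fold change of 1.44 (adjusted p = 5.3e-06, edgeR), and by 1.24 in HOXB13 cells. The coactivators NCOA3 and NCOA2 fell in control cells, with log2 fold changes of −0.73 and −0.54. The glucocorticoid receptor gene NR3C1, whose product shares the AGAACA half-site, fell in control cells by 0.73 on the log2 scale (adjusted p = 0.00942, edgeR) and had −0.39 in HOXB13 cells (0.161, and 0.00749 with the block). PGR, the progesterone receptor gene, rose in control cells by 0.91 (adjusted p = 0.0120, edgeR) and had 0.65 in HOXB13 cells (0.0687, and 0.000111 with the block). FOXA1 had −0.32 in control cells (0.0669, and 0.000447 with the block) and −0.38 in HOXB13 cells (0.0347). Of 26 genes of receptor partners, 5 rose and 3 fell in control cells and 3 rose and 5 fell in HOXB13 cells, where 8.65% and 6.72%, and 7.22% and 6.38%, of all genes rose and fell. With the replicate block 7 rose and 12 fell in control cells, beside 17.5% and 16.5% of all genes, and 7 rose and 10 fell in HOXB13 cells, beside 15.5% and 15%. Without the libraries numbered 2 the counts were 5 and 9, beside 12.9% and 11.1% of all genes, and 5 and 11, beside 11.7% and 10.4%. The part that these genes had in the values of the 9 was not tested.

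**Figure D3:**
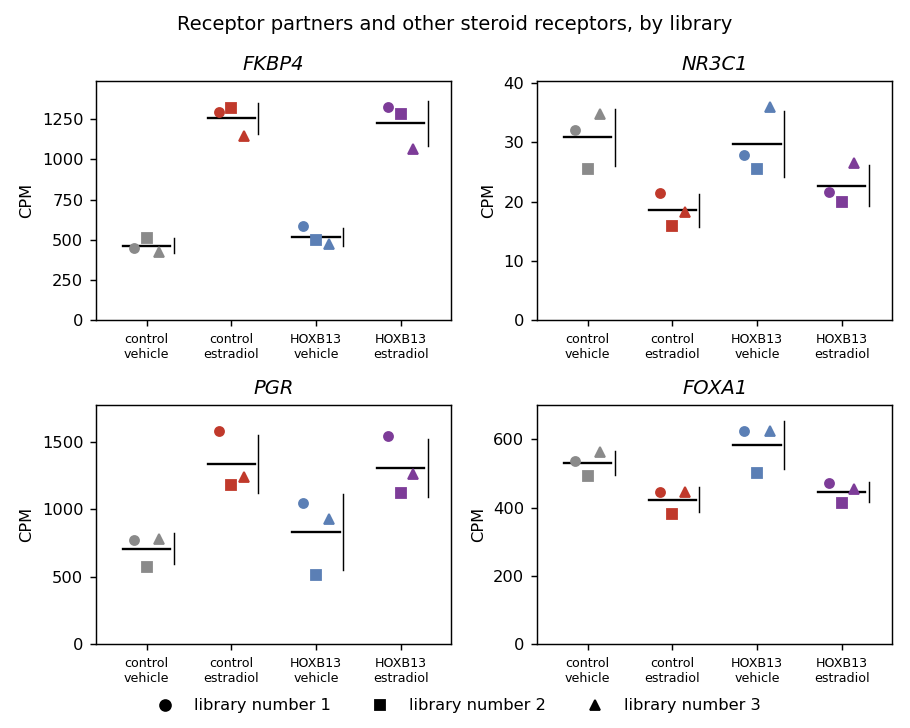
CPM by library of FKBP4, NR3C1, PGR and FOXA1, 1 panel per gene with its own linear axis from 0. Points are libraries, marker shapes give library numbers, bars are group means and lines 1 SD (n = 3). NR3C1 and FOXA1 means are lower with estradiol, and FKBP4 and PGR means are higher in both cell types.

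A list of 80 other androgen-responsive genes, 68 of them tested, held 7 that rose and 18 that fell with estradiol in control cells, 10.3% and 26.5% of those tested, beside 8.65% and 6.72% of all genes. In HOXB13 cells 6 rose and 15 fell, 8.82% and 22.1% of those tested, beside 7.22% and 6.38% of all genes. With the replicate block the counts were 12 and 26 in control cells, where 17.5% and 16.5% of all genes rose and fell, and 12 and 24 in HOXB13 cells, where 15.5% and 15% did. Without the libraries numbered 2 they were 10 and 20 in control cells and 7 and 18 in HOXB13 cells, where 12.9% and 11.1%, and 11.7% and 10.4%, of all genes rose and fell. The median log2 fold change was −0.15 in control and −0.10 in HOXB13 cells. The list was chosen with earlier results of these data known, so its shares are not independent of them. None of the 68 passed in either HOXB13 comparison, with or without the block, where at most 0.25% of all genes rose or fell. The cation channel gene TRPM8 fell from 8.57 ± 1.22 to 1.82 ± 0.421 CPM (SD, n = 3) in control cells, a log2 fold change of −2.24, close to that of MAF. The stress-response gene NDRG1 had −1.95, the metalloreductase gene STEAP4 −1.72 and the potassium channel gene KCNMA1 −1.45. B4GALT1, a galactosyltransferase gene, rose by 1.54 on the log2 scale in control cells, and the cell division genes CENPN and NCAPD3 rose by 0.79 and 0.62. CCND3, a cyclin gene, rose by 0.58.

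**Figure D4:**
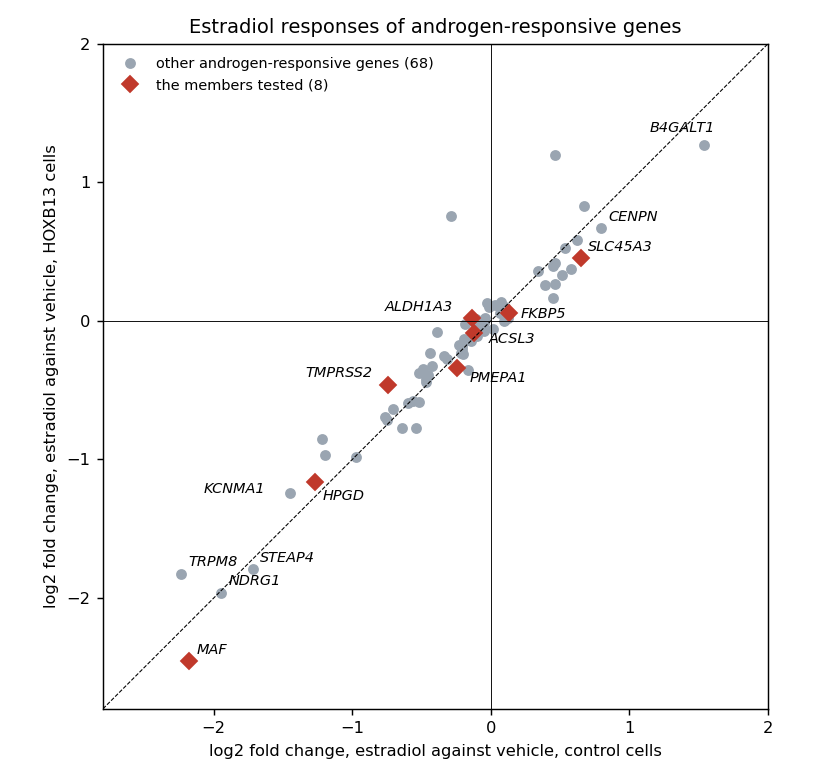
Log2 fold change with estradiol in control cells (horizontal) and in HOXB13 cells (vertical), for the 8 tested genes (diamonds) and the 68 other androgen-responsive genes (circles). The dashed line marks equal responses. MAF, at −2.18 and −2.46, is the lowest of the diamonds, with TRPM8, NDRG1 and STEAP4 the nearest labelled circles, and SLC45A3 is the highest of the diamonds.

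FKBP5 and ZBTB16 are also known targets of the glucocorticoid and progesterone receptors. Of 16 other genes that these receptors share with the androgen receptor, 1 rose and 4 fell with estradiol in control cells and 1 rose and 5 fell in HOXB13 cells, that is 25% and 31.2% lower, where 6.72% and 6.38% of all genes fell. With the block 2 rose and 9 fell in control cells and 1 rose and 7 fell in HOXB13 cells, and without the libraries numbered 2 the counts were 2 and 7, and 1 and 6. Of all genes 16.5% and 15% fell with the block, and 11.1% and 10.4% without those libraries. The shares of all genes that rose were 8.65% in control and 7.22% in HOXB13 cells. They were 17.5% and 15.5% with the block, and 12.9% and 11.7% without those libraries. The leucine zipper gene TSC22D3 fell from 41.7 ± 1.34 to 21.1 ± 4.52 CPM (SD, n = 3) in control cells, and the clock gene PER1 fell from 25.4 ± 3.19 to 16.3 ± 0.504 CPM, whereas FKBP5 did not pass. Of 14 apocrine genes, 12 were tested, and 3 fell in control and 4 in HOXB13 cells, 25% and 33.3% of those tested, with none rising. With the block 6 and 7 fell, and without the libraries numbered 2 it was 4 and 6, to be read beside the same shares of all genes. The serine hydrolase-like gene SERHL2 had log2 fold changes of −1.74 and −1.25 and the chloride channel regulator gene CLCA2 −0.88 and −1.16. In the HOXB13 comparisons 0 of the 16 and 0 of the 12 passed. Of all genes 0.0203% rose in vehicle and 0.0135% with estradiol, and 0% fell. With the block 0 of the 16 passed, and 1 of the 12 rose and 1 fell in each treatment. Of all genes 0.189% rose and 0.216% fell in vehicle with the block, and 0.142% and 0.25% with estradiol. CLCA2 measured 3.11 ± 0.371 CPM in control and 8.61 ± 1.10 CPM in HOXB13 vehicle libraries (SD, n = 3). With estradiol it measured 1.68 ± 0.455 and 3.85 ± 0.888 CPM. Both lists were also chosen with earlier results of these data known.

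The genes whose library profiles lay nearest to each tested gene were found from log2 CPM centred on each gene's mean over the 12 libraries. Likeness was the root mean square difference, in log2 units, over 11731 candidate genes. MAF was nearest to TRPM8 and IL1R1, the interleukin-1 receptor gene, both at 0.40, against a spread of 1.15 of its own. TMPRSS2 was nearest to C9orf91 and SEMA4B, both at 0.11, with its own spread at 0.34. PMEPA1 was nearest to AFAP1 at 0.088, an actin filament adaptor gene, and to FAM20C, a secretory kinase gene, with its own spread at 0.25. ALDH1A3 was nearest to the chemokine gene CCL28 at 0.12 and to GNAI1 at 0.15. FKBP5 was nearest to MPZL1 (0.056) and ACSL3 to LAMC1 (0.053), SLC45A3 to LINC00221 (0.23) and HPGD to CLDN8 (0.41). Among the 8 themselves the closest pair was FKBP5 and ACSL3 at 0.13, and the most distant was SLC45A3 and MAF at 1.45. The distances are descriptions of 12 libraries that share a line, a treatment and the library-number shift.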

How the data were processed

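RNA of 12 T47D libraries was measured by RNA sequencing. Per the submitters' processing notes, FastQC, STAR, Picard and HTSeq were used with GRCh37/hg19; no settings or versions are named there. The deposited values are raw read counts per gene symbol, and the number of counts limits the precision of low genes.

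Counts were scaled with TMM factors and printed as CPM. Genes with at least 10 counts' worth of CPM in 3 libraries and 15 counts in all were tested with edgeR 4.0.16 (quasi-likelihood, robust, 4 group means over 12 libraries) in R 4.3.3, adjusting by Benjamini-Hochberg over 14799 genes at 0.05. DESeq2 1.42.0, limma 3.58.1 (voom), other scaling, filters and samples were alternatives. The scripts were tested on simulated data. Replicates differed beyond counting noise.

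Same-numbered libraries deviated together in each comparison of 2 groups (correlations of deviations of at least 0.123, against a minimum of 0.1; different-numbered pairs reached 0.169 in HOXB13 against control cells with vehicle, above the lowest same-numbered value there, 0.125), so the number was also fitted as a block. The lowest same-numbered correlation over all 4 groups was 0.0926, under that minimum, and different-numbered pairs reached 0.255. The shared deviation was clearest for number 2.

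Named were the 9 genes, a fixed set of receptor and prostate genes, from each list the 4 most changed genes in each direction that passed (mean log2 CPM 1 or more), and 2 genes nearest in pattern to each tested gene. The 9 genes and the lists were chosen with earlier results of these data known. Intervals of count sums are exact Poisson and those of their ratios exact binomial. Promoters came from RefSeq (GRCh38.p14). Some genes of the lists are not reported here by name.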

Additional observations from a re-analysis of the deposited data

How the results depend on the processing

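With the library number as a block (the pairing by number), 1 of the 8 tested genes, SLC45A3, rose with estradiol in control cells instead of 0, and 1, PMEPA1, fell in HOXB13 against control cells with estradiol instead of 0. SLC45A3 also passed, as the 1 gene that rose, without the libraries numbered 2. The count of genes that fell with estradiol in HOXB13 cells dropped from 2 to 1 with upper-quartile factors (PMEPA1 adjusted p = 0.0510, edgeR), with no filter (0.119) and with only the groups compared in the fit (0.108), and ran from 1 to 2 when 1 library was left out. The average over both treatments with the block gave 1 gene lower in HOXB13 cells, PMEPA1. The cause of these changes was not tested. The other 166 counts stayed within 1.5 times the value given, and no single-gene value that had passed changed direction. With 3 libraries a group, low counts limit HPGD and ZBTB16.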

Other observations

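FOLH1, which encodes prostate-specific membrane antigen and is known to be lowered by androgen, was the 1 gene tested of 6 listed as androgen-repressed. In HOXB13 cells it measured 1.86 ± 0.802 CPM with vehicle and 0.923 ± 0.187 CPM with estradiol (SD, n = 3), with every estradiol library lower. The log2 fold change was −1.01 ± 0.39 (SE) and missed the threshold (adjusted p = 0.107, edgeR), which it passed with the library number as a block (0.0486). In control cells it had 1.47 ± 0.139 and 1.51 ± 0.549 CPM, and its other comparisons did not pass.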
